A study of Anser cygnoides with 4 samples.

Results

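Satellite-type and stromal cells of goose embryonic leg muscle were compared within the same libraries, namely cells with transcripts of PAX7, the transcription factor that marks muscle satellite cells, and cells with transcripts of DCN and COL6A3, matrix genes that the study used to mark fibro-adipogenic progenitors (FAPs). Both classes were chosen by counts of 6 genes per barcode, among barcodes with 300 to 6500 genes and 1000 to 50000 UMIs (molecular tags that let each captured RNA be counted once). PAX7 gated cells had at least 2 UMIs of PAX7, none of MYOG, none of PTPRC and fewer than 5 of DCN. FAP gated cells had at least 5 UMIs each of DCN and COL6A3, none of PAX7, MYOG or PTPRC, and at most 1 of MYOD1. Of 49503 barcodes within the limits, 10726 were PAX7 gated and 5119 were FAP gated, together 15845. All other barcodes, myocytes with MYOG among them, were left out.

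Satellite cells are the stem cells of skeletal muscle, which lie between the fibre and its basement membrane and divide to supply new myonuclei. In the limb their embryonic forerunners migrate in from the somites under PAX3, LBX1 and the receptor MET. FAPs are connective tissue cells of muscle that stem from the limb mesenchyme, lay down interstitial matrix and send growth factors to neighbouring muscle cells, and they can turn into fibroblasts or fat cells.

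The study collected leg muscle from female Zhedong White goose embryos on day 13 (E13), day 15 (E15), day 18 (E18) and day 23 (E23) of incubation and made 1 droplet library (10x Genomics, 3′ tags) per day, each from a pool of embryos. The pool held 3 embryos by the sample labels and 4 by the methods of the paper. Before capture the cells had been enriched for satellite cells by letting fibroblasts attach to plates, then frozen and thawed, so the number of FAPs recovered does not measure their share of the muscle. All titles give day 13 before the stage in brackets, and the age fields, which hold the same days as the brackets, were used. All groups compared share sex, breed, tissue and this preparation. With 1 library per day, days could be compared only as a trend over 4 libraries, while the cell classes were compared in every library.

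In the order E13, E15, E18, E23, which holds for every list of 4 values, the libraries gave 2554, 2184, 2534 and 3454 PAX7 gated cells, which was 16.1%, 19.1%, 22.6% and 31.6% of the barcodes within the limits. FAP gated cells numbered 1843, 581, 1403 and 1292, or 11.6%, 5.07%, 12.5% and 11.8%, so E15 had the fewest. The median PAX7 gated cell held 9043 to 11518 UMIs and the median FAP gated cell 14592 to 19815 UMIs, and summed counts ranged from 10412078 UMIs for FAP gated cells at E15 to 41163660 for PAX7 gated cells at E23. Doublet scores marked 4.81% to 9.71% of PAX7 gated and 1.38% to 3.91% of FAP gated cells. Libraries shared 25 to 54 barcode sequences in pairs, 0.228% to 0.484% of the smaller library.

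The genes of the gate are given as a description only, since they chose the cells. PAX7 stood at 418, 781, 574 and 622 CPM (counts per 1000000 UMIs of the summed cells) in PAX7 gated cells in the order of the days, and at 0 in FAP gated cells. MYOD1, which was limited only in FAP gated cells, stood at 946, 898, 424 and 332 CPM in PAX7 gated cells and at 6.87, 3.84, 2.20 and 2.57 CPM in FAP gated cells. COL6A3, which had no limit in PAX7 gated cells, stood at 225, 257, 219 and 513 CPM there. In FAP gated cells COL6A3 stood at 1074, 1619, 786 and 1025 CPM. The median PAX7 gated cell held 0, 0, 1 and 4 UMIs of COL6A3. Both gates had many cells near their edges: 857, 221, 423 and 548 PAX7 gated cells held exactly 2 UMIs of PAX7, and 1322, 222, 508 and 688 barcodes that met every other condition held 1 and stayed outside. At the other gate, 192, 28, 89 and 95 cells held exactly 5 UMIs of DCN, of COL6A3 or of both. Another 179, 38, 145 and 111 barcodes held 4 UMIs of either gene and at least 5 of the other, and stayed outside. In PAX7 gated cells 51.3%, 53.0%, 45.7% and 32.6% had at least 1 UMI of DCN, which the gate allowed up to 4.

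Raw UMI counts were summed per library and gate, and the 8 sums were tested across 13858 genes with edgeR's quasi-likelihood test and the library as a block, with p adjusted by Benjamini-Hochberg. In such sums, fewer cells expressing a gene and less of its RNA per cell cannot be told apart. At an adjusted p below 0.05, 2740 genes (19.8%) were higher and 2934 (21.2%) lower in PAX7 gated cells. These shares are the background for every count of list or marker genes called below. A stricter test, which asks whether the difference exceeds 2-fold and is called the 2-fold test here, left 637 higher genes (4.6%) and 557 lower genes (4.02%). All 1194 had the same direction in 4 of 4 libraries, and in 580 of the higher and 509 of the lower genes the 4 levels of one gate lay wholly above those of the other, where 22.5% of all genes tested did so. Both traits follow in part from choosing these genes by a test on the same 8 sums. The same holds for the genes named below that were chosen from them. The median log2 fold of all genes tested was -0.01. Differences past 16-fold were found in 167 higher and 142 lower genes. Among the 1194 genes, 155 higher and 134 lower ones carry only locus numbers as symbols and are not named.

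**Figure D1:**
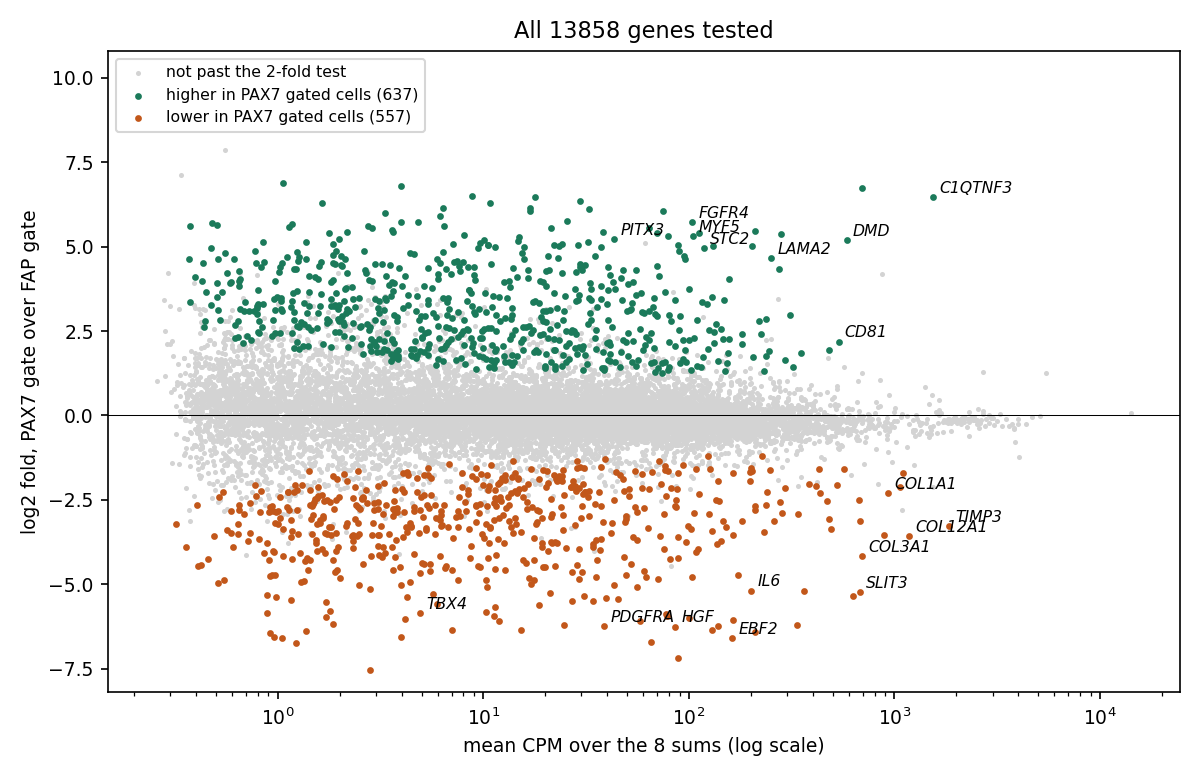
Log2 fold of PAX7 gated over FAP gated cells (vertical axis) against mean CPM over the 8 sums (horizontal axis, log scale) for the 13858 genes tested. Green points are the 637 genes higher and orange points the 557 genes lower in the 2-fold test, grey points are all others, and the genes with names reach log2 folds from -6.59 for EBF2 to 6.48 for C1QTNF3.

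These p-values rest on how the difference between the gates varied over 4 libraries of different days. Since cells were chosen by 6 genes, any gene expressed together with one of them had to move with it. Without the E18 library 1692 genes were higher and 1779 lower, and the 2-fold test left 352 higher genes, against 404 without E15. The 2-fold test left 364 lower genes without E13.

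Markers that took no part in the gates sorted with the labels. Of the 11 satellite cell markers tested outside the gate, 9 were higher in PAX7 gated cells, and the summed level of all 12 in the files ranged from 1772 to 3572 CPM there against 68.0 to 136 CPM in FAP gated cells. HEYL, a Notch target, and DES, the muscle intermediate filament desmin, did not pass the test (log2 folds of -1.05 and 0.45), and CHODL, a lectin used as a satellite cell marker in mammals, was at or below 0.206 CPM in every PAX7 gated sum. Of 12 FAP markers, 10 were lower in PAX7 gated cells, with summed levels of 779 to 1432 CPM against 4274 to 6045 CPM. PRRX1, a limb mesenchyme factor, was among those that did not pass (log2 fold -0.62, adjusted p = 0.0959), with 187, 331, 745 and 469.9 CPM in PAX7 gated and 474, 557, 667 and 685 CPM in FAP gated cells. MYF5 and CDH11 were picked by the study as markers on these same libraries, so their direction is not independent evidence.

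Shares of cells with a UMI were read after thinning each cell to 4000 UMIs, which left out 419 PAX7 gated and 22 FAP gated cells as too shallow. MYF5, a myogenic determination factor, was detected in 46.9%, 47.0%, 40.2% and 51.9% of PAX7 gated cells and in 2.99%, 2.28%, 0.713% and 2.02% of FAP gated cells. PDGFRA, the receptor that defines FAPs in mammals, was found in 20.3%, 26.5%, 29.5% and 22.0% of FAP gated cells and in 0.400%, 0.545%, 0.327% and 0.179% of PAX7 gated cells. COL1A1, a chain of type I collagen, was seen in 92.8%, 98.6%, 95.5% and 96.0% of FAP gated cells but also in 50.6%, 70.8%, 50.0% and 77.8% of PAX7 gated cells. As a background, cells with at least 2 UMIs of the leukocyte gene PTPRC and none of PAX7 or DCN (62, 19, 101 and 178 cells, median 5191 to 6694 UMIs) gave 1.89% to 7.14% for MYF5, 0% to 2.13% for PDGFRA and 0% to 5.66% for COL1A1. Unthinned, the share of PAX7 gated cells with COL1A1 was 73.5%, 86.3%, 74.5% and 91.8%. The COL1A1 share in PAX7 gated cells was above this background, which was itself limited to cells without DCN, in every library. The MYF5 share in FAP gated cells lay within the interval of the PTPRC cells in every library. Those intervals were wide, at 0.181% to 33.9% at E15 and 0.391% to 5.41% at E23, and both sets of cells had to lack PAX7. The comparison therefore cannot show whether MYF5 in FAP gated cells exceeded background. Exact 95% binomial intervals, which cover counting error only, reached at most 2.21 percentage points from these shares in PAX7 gated, 3.83 in FAP gated and 26.7 in PTPRC cells. The thinned PTPRC cells numbered 14 at E15, where a count of 0 cells with a UMI of PDGFRA or COL1A1, read with a limit of 3 counts, allows a share of up to 21.4%.

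Markers of immune and Schwann cells were low in both gates, while those of mural cells were not. Of 11 immune markers the summed level was 13.5 to 36.5 CPM in PAX7 gated and 5.32 to 11.5 CPM in FAP gated cells, against 2807 to 3359 CPM in the PTPRC cells, and C1QA was at 0 in both gates. The 9 Schwann cell markers summed to 6.88 to 12.8 and 4.22 to 14.2 CPM. The 11 endothelial markers summed to 18.8 to 106 and 101 to 227 CPM, most of it ERG, while KDR stayed at or below 0.360 CPM in each sum. Mural cell markers were divided, with 5 of 8 tested lower and 2 higher in PAX7 gated cells, and their summed level was 608 to 2046 CPM in FAP gated and 385 to 665 CPM in PAX7 gated cells over 9 genes, most of it ACTA2, TAGLN and PDGFRB. RGS5, a pericyte marker, was at 0.486 to 1.28 CPM in FAP gated and 3.53 to 9.26 CPM in PAX7 gated cells. The RGS5 call was lost without E15, after thinning to 4000 UMIs and with dividing cells left out (edgeR adjusted p = 0.0559, 0.0659 and 0.0509). KCNJ8 and ABCC9, also of the mural list, went the other way (log2 folds -4.60 and -2.83, adjusted p = 0.000780 and 0.00173). They stood at 1.41 to 21.0 and 1.90 to 18.6 CPM in FAP gated cells, against 0.0846 to 0.742 and 0.423 to 2.68 CPM in PAX7 gated cells. MYH11, which defines smooth muscle, was at or below 0.582 CPM in every sum. Tendon and cartilage markers summed to 31.5 to 238 and 41.6 to 104 CPM in PAX7 gated cells and to 36.2 to 141 and 40.1 to 173 CPM in FAP gated cells. The part of other cell types in the differences between the gates was not tested.

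Among the genes with the largest log2 fold on the PAX7 side, C1QTNF3, a secreted protein of the C1q and TNF family, stood at 4702, 5532, 1083 and 899 CPM in PAX7 gated cells and at 61.6, 44.1, 8.55 and 17.0 CPM in FAP gated cells (log2 fold 6.48 ± 0.61, SD over the 4 libraries, adjusted p = 0.000603). The levels of C1QTNF3 in both gates were lower at E18 and E23 than at E13 and E15, while the log2 ratio between the gates stayed between 5.71 and 6.97. MEGF10, a membrane protein that sets the balance of satellite cell division and differentiation in mice, stood at 186, 214, 73.9 and 115 CPM against 3.22, 2.71, 1.28 and 1.5 CPM (log2 fold 6.05 ± 0.25, adjusted p = 0.000108), with nearly the same ratio in each library. FGFR4, the fibroblast growth factor receptor of muscle progenitors, stood at 133, 328, 219 and 136 CPM against 3.49, 4.70, 3.21 and 2.96 CPM (log2 fold 5.74 ± 0.43, adjusted p = 0.000285). With the same MYOD1 limit in both gates, the log2 folds of C1QTNF3, MEGF10 and FGFR4 were 6.27, 4.75 and 5.19, all still called.

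Receptors for melatonin and serotonin were among these genes. MTNR1B, a melatonin receptor, stood at 61.7, 58.1, 8.11 and 13.7 CPM in PAX7 gated and 0.900, 0.104, 0.0774 and 0.265 CPM in FAP gated cells (log2 fold 6.47, adjusted p = 0.00107), and its level in PAX7 gated cells was higher at E13 and E15 than later. HTR1F, a serotonin receptor, stood at 27.8, 9.28, 7.49 and 40.5 CPM against 0.562, 0, 0.0774 and 0.397 CPM (log2 fold 6.29, adjusted p = 0.000780), with 0 counts in FAP gated cells at E15. With the same MYOD1 limit in both gates, the log2 folds of MTNR1B and HTR1F were 5.71 and 4.89, both still called. The others were DMRT2 (log2 fold 6.06), a factor of the dermomyotome in mice, the homeobox gene EN2 (5.75), PAX3 (5.55), the zinc finger gene ZNF536 (5.54) and the kinase gene STK32B (5.45). In these 10 genes the 4 PAX7 gated levels lay above all 4 FAP gated levels. In 9 of the 10 the mean level in FAP gated cells was below that in the PTPRC cells, the exception being STK32B with 9.45 CPM against 2.17 CPM, where CPM of the PTPRC cells is on plain totals.

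The 3 further genes named for their high mean level in PAX7 gated cells were DMD, CD81 and ZBTB20. DMD, which encodes dystrophin, stood at 914, 1469, 1006 and 1169 CPM against 40.1, 22.0, 19.4 and 49.3 CPM (log2 fold 5.19 ± 0.79, adjusted p = 0.00120). CD81, a tetraspanin, was present in both gates, with 622, 803, 1340.3 and 762 CPM against 196, 161, 211 and 177 CPM (log2 fold 2.19, adjusted p = 0.00159). ZBTB20, a transcriptional repressor, likewise differed by less, with a log2 fold of 1.94 (adjusted p = 0.00553). No level of these 3 genes overlapped between the gates.

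Among the genes with the largest log2 fold on the FAP side, EBF2, a transcription factor of mesenchymal cells, stood at 306, 411, 233 and 328 CPM in FAP gated cells and at 4.78, 8.05, 1.71 and 1.48 CPM in PAX7 gated cells (log2 fold -6.59 ± 0.95, adjusted p = 0.00119). HPGDS, which makes prostaglandin D, stood at 536, 536, 518 and 54.5 CPM against 5.77, 3.04, 15.9 and 0.423 CPM (log2 fold -6.42, adjusted p = 0.00148), and its level at E23 was the lowest in both gates. PTGS2, the inducible cyclooxygenase that feeds prostaglandin synthesis, stood at 115, 73.2, 84.5 and 344 CPM against 3.50, 0.928, 2.58 and 1.90 CPM (log2 fold -5.94, adjusted p = 0.00198) and was highest in FAP gated cells at E23, where HPGDS was lowest. DKK2, a secreted Wnt antagonist, stood at 420.1, 452, 133 and 90.5 CPM against 6.35, 7.04, 1.45 and 1.02 CPM (log2 fold -6.23 ± 0.23, adjusted p = 0.000108), and both gates had less of it at E18 and E23. PDGFRA stood at 59.4, 81.2, 101 and 62.9 CPM against 1.07, 1.39, 1.45 and 0.402 CPM (log2 fold -6.23 ± 0.62, adjusted p = 0.000614).

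The remaining members of this set were HGF, NTN1, the cytokine gene TNFSF15 (log2 fold -6.36), the LIM protein gene FHL5 (-6.19), MAB21L1 (-6.08), TRABD2B (-6.06), which encodes a protease that inactivates Wnt proteins, and CEMIP (-6.00), which takes part in hyaluronan breakdown. In all 12 genes the 4 FAP gated levels lay above all 4 PAX7 gated levels. In HPGDS, TNFSF15, HGF and PTGS2, 4 of the 12, the mean level in PAX7 gated cells was below that in the PTPRC cells.

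**Figure D2:**
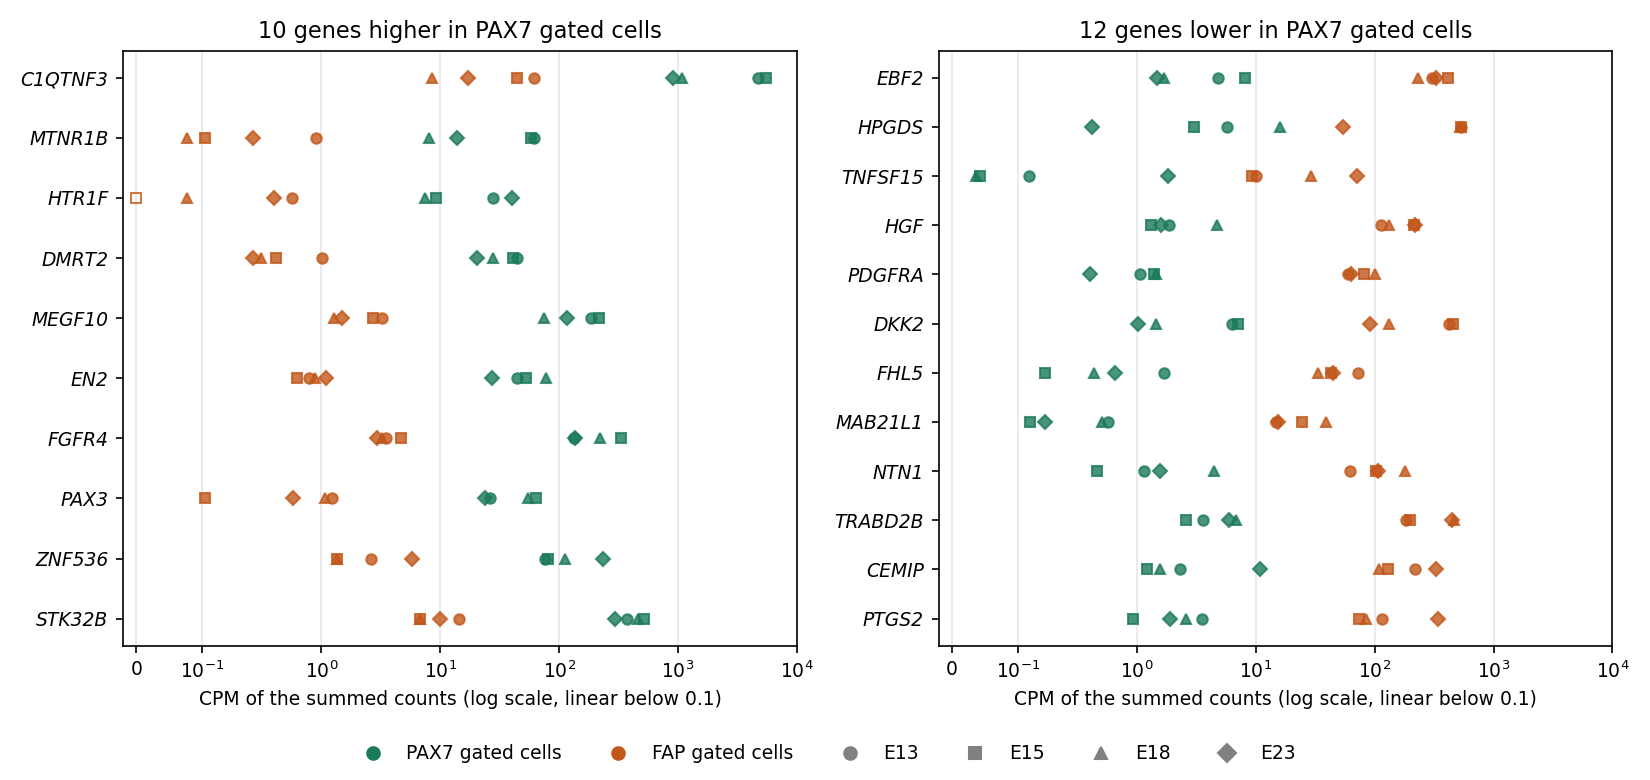
CPM of the summed counts (horizontal axis, log scale above 0.1) of 10 genes higher and 12 genes lower in PAX7 gated cells, taken from those with the largest log2 folds, 1 symbol per library and 1 colour per gate, with an open symbol for a count of 0. The colours do not overlap in any of the 22 genes, and the library ratios range from 4.31 to 8.46 on the log2 scale on the PAX7 side and from 4.52 to 8.01 in size on the FAP side.

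Most myogenic transcription factors were higher in PAX7 gated cells. Of 23 tested, 18 were higher (list median log2 fold 1.98), none lower, and MEF2C, KLF5, ID3, HEYL and DACH1 were not called, with log2 folds of 0.74, 0.45, 0.21, -1.05 and -1.15. PAX3, the factor of migrating muscle progenitors, stood at 26.0, 64.0, 54.8 and 23.6 CPM against 1.24, 0.104, 1.08 and 0.574 CPM (adjusted p = 0.00247). LBX1, which acts beside it in limb migration, stood at 18.2, 50.5, 30.8 and 16.4 CPM against 0.225, 0.418, 0.464 and 1.85 CPM (log2 fold 5.28, adjusted p = 0.00463). Both had their highest PAX7 gated level at E15 and their lowest at E23. MYF5, a determination factor, stood at 219, 198, 164 and 233 CPM against 8.47, 3.44, 3.29 and 6.01 CPM (log2 fold 5.32 ± 0.50, adjusted p = 0.000470), and its 4 PAX7 gated levels lay within a narrow range. MSC, a bHLH factor known as musculin, rose with a log2 fold of 5.03 (adjusted p = 0.000780), and EYA1, a transcriptional coactivator, with 4.72 ± 0.11 (adjusted p = 0.000108).

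Of 25 satellite cell surface genes, 17 were higher and 3 lower. CDH15, the muscle cadherin, stood at 7.75, 14.9, 8.43 and 18.2 CPM against 0.262, 0.731, 0.232 and 0.574 CPM (log2 fold 4.84, adjusted p = 0.000394). CALCR, the calcitonin receptor that keeps satellite cells quiescent in mice, stood at 53.1, 119, 29.4 and 28.9 CPM against 3.45, 2.51, 1.01 and 3.09 CPM (log2 fold 4.32, adjusted p = 0.00232), with its highest level at E15. VCAM1, which marks satellite cells in mice, went the other way with 0.206, 0.211, 0.618 and 0.254 CPM in PAX7 gated and 1.72, 11.5, 7.58 and 2.43 CPM in FAP gated cells (log2 fold -3.88, adjusted p = 0.00415). CADM1, a synaptic adhesion gene, had a log2 fold of 3.16 (adjusted p = 0.0208) that was not called without E15 (adjusted p = 0.0602) or without E23 (0.0658).

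Notch signalling keeps satellite cells undifferentiated. Of 19 members of its list 6 were higher, 3 lower and 10 not called, where 19.8% and 21.2% of all genes were called higher and lower. HEY1, a target of the pathway, stood at 334, 446, 293 and 110.3 CPM against 27.1, 14.1, 15.2 and 11 CPM (log2 fold 4.03, adjusted p = 0.00150). The receptor gene NOTCH1 was higher by 1.12 on the log2 scale (adjusted p = 0.0102) without overlap. The target HES1 had a log2 fold of 1.90 (adjusted p = 0.0378) that was not called without E15, E18 or E23 (adjusted p = 0.10, 0.0892 and 0.113). On the other side, the coactivator MAML3 had a log2 fold of -1.86 and the atypical ligand DLK1 of -3.22 (adjusted p = 0.00386 and 0.0122).

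Genes of the contractile apparatus and the neuromuscular junction were higher in PAX7 gated cells in 20 of 30 cases and lower in 3. MYOG had to be 0 in both gates, but MYOD1 was limited only in FAP gated cells. With the same MYOD1 limit in both gates, 191 named genes of all lists kept their call and 13 lost it. The myocyte markers ACTN2 and TNNT3 were among those that lost it (adjusted p = 0.0513 and 0.0540). CHRND, the delta subunit of the muscle acetylcholine receptor, stood at 31.2, 54.6, 37.8 and 35.5 CPM against 1.09, 1.57, 1.47 and 1.68 CPM (log2 fold 4.74 ± 0.30, adjusted p = 0.000240). MYMK, the fusion protein myomaker, stood at 6.92, 5.48, 3.89 and 5.63 CPM against 0.637, 1.36, 0.542 and 0.397 CPM (log2 fold 3.02, adjusted p = 0.00313), and NEB, which encodes nebulin, at 13.9, 12.9, 14.4 and 31.2 CPM against 3.97, 2.51, 1.82 and 3.31 CPM (log2 fold 2.60, adjusted p = 0.00275). The myocyte marker list summed to 212 to 303 CPM in PAX7 gated and 37.6 to 158 CPM in FAP gated cells, against 298 to 3279 CPM in the PTPRC cells. MYMK and NEB had mean levels of 6.83 and 88.9 CPM in the PTPRC cells, above their means in PAX7 gated cells, and the part of free RNA in these levels was not tested. With the highest doublet scores removed the log2 folds of CHRND, MYMK and NEB were 4.99, 3.04 and 2.43, all still called. In that setting MYOD1 was still limited only in FAP gated cells. SGCA, which encodes the muscle protein alpha-sarcoglycan and was singled out after its values were seen, went the other way with 53.7, 177, 127 and 82.6 CPM in PAX7 gated and 236, 738, 517 and 415 CPM in FAP gated cells (log2 fold -2.14 ± 0.14, adjusted p = 0.000310). In the RefSeq table of the Taihu goose assembly SGCA is the next coding gene to COL1A1, whose log2 fold, looked up for this reason, was -2.30 ± 0.15, and whether reads of one were counted for the other was not tested.

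Transcription factors of limb connective tissue were lower in PAX7 gated cells in 18 of 33 cases and higher in 5. OSR1, which marks embryonic FAPs in mice, stood at 89.9, 43.8, 52.6 and 79.8 CPM in FAP gated and 5.81, 0.717, 1.16 and 0.613 CPM in PAX7 gated cells (log2 fold -5.49, adjusted p = 0.00259). SHOX and SHOX2, homeobox genes of limb mesenchyme, had log2 folds of -5.59 and -5.60 (adjusted p = 0.00142 and 0.00168), and SHOX2 had 64.8, 37.4, 33.5 and 11.2 CPM in FAP gated cells, highest at E13 and lowest at E23. GATA6 had a log2 fold of -5.26 (adjusted p = 0.00112), with 24.8, 109, 25.3 and 5.74 CPM in FAP gated cells, highest at E15. FOXP2, a forkhead factor, was on the PAX7 side with 120.1, 193, 158 and 149 CPM against 4.91, 2.82, 2.44 and 5.26 CPM (log2 fold 5.32, adjusted p = 0.00106). TWIST1, PRRX1 and TCF7L2, all used as markers of muscle connective tissue, were not called, with log2 folds of -0.46, -0.62 and 0.04.

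Factors that give the limb its position and type were divided between the gates, with 10 of 25 higher and 7 lower in PAX7 gated cells. PITX3, a homeobox gene of muscle and eye, stood at 78.9, 81.5, 85.3 and 92.3 CPM against 1.54, 1.98, 1.90 and 4.11 CPM (log2 fold 5.22 ± 0.51, adjusted p = 0.000614). PITX3 had about the same level in PAX7 gated cells of every library. HOXC11 and HOXC10, of the posterior HOXC cluster, were higher by 4.65 and 4.30 in log2 fold (adjusted p = 0.00390 and 0.00175). TBX4, the hindlimb T-box gene, stood at 13.9, 9.29, 8.28 and 7.02 CPM in FAP gated cells and at 0.701, 0.0422, 0.145 and 0.0211 CPM in PAX7 gated cells (log2 fold -5.84, adjusted p = 0.00310). LMX1B, the factor of dorsal limb mesenchyme, stood at 40.2, 33.9, 39.1 and 18.8 CPM against 1.90, 0.211, 0.582 and 1.71 CPM (log2 fold -4.98, adjusted p = 0.00464). PITX1, the hindlimb gene upstream of TBX4, was not called (log2 fold -0.58, adjusted p = 0.272), and neither were HOXA9, HOXA10 or HOXA11 (0.44, -0.62 and 0.85).

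Interstitial matrix genes stood on the FAP side. Of 19 fibrillar collagens, their partners and small proteoglycans, 15 were lower in PAX7 gated cells (list median log2 fold -2.05), and COL16A1, named here after its values were seen, was higher by 0.74. COL14A1, a collagen on the surface of fibrils, had the largest difference (log2 fold -4.48, adjusted p = 0.0144). COL12A1, a collagen that links fibrils, stood at 2223, 3157, 1239 and 2095 CPM in FAP gated and 217, 215, 96.0 and 203 CPM in PAX7 gated cells (log2 fold -3.57 ± 0.25, adjusted p = 0.000240). COL3A1 stood at 1199, 1267, 1167 and 1610.4 CPM against 62.4, 128, 99.8 and 32.4 CPM (log2 fold -4.17, adjusted p = 0.00294). Both had levels in PAX7 gated cells above their means in the PTPRC cells (38.2 and 4.06 CPM). The PTPRC cells were limited to cells without DCN, while PAX7 gated cells could hold up to 4 UMIs of it. The part of free RNA in these levels was not tested. COL5A1, named for its level, differed less, with 1494, 2179, 1357 and 1744 CPM against 480.1, 543, 441 and 580.4 CPM (log2 fold -1.71, adjusted p = 0.000780). COL6A1 and COL6A2, which assemble with the gate gene COL6A3, had log2 folds of -3.06 and -2.92 (adjusted p = 0.00208 and 0.00188). VCAN, OMD and COL11A1 were not called.

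Basement membrane genes went the opposite way, with 11 of 23 higher in PAX7 gated cells, 2 lower and 10 not called. LAMA2, the laminin chain of the muscle basement membrane, stood at 571, 369, 316 and 678 CPM in PAX7 gated and 21.2, 8.56, 14.8 and 38.2 CPM in FAP gated cells (log2 fold 4.66 ± 0.55, adjusted p = 0.000780). COL15A1, a collagen that anchors basement membranes, stood at 377, 530.4, 327 and 329 CPM against 20.8, 10.1, 6.11 and 14.3 CPM (log2 fold 5.01, adjusted p = 0.00135). COL4A5 and COL4A6, neighbouring genes for type IV collagen chains, had log2 folds of 4.25 and 5.02 (adjusted p = 0.00508 and 0.00351), and in both the PAX7 gated level was lowest at E13 and highest at E18. The chains COL4A1 and COL4A2, found in most basement membranes, were not called (log2 folds 0.49 and 0.92). FREM2, of the FRAS and FREM family, stood at 78.7, 113, 30.1 and 3.32 CPM against 2.02, 1.88, 0.542 and 0.662 CPM (log2 fold 5.03, adjusted p = 0.00408), and its PAX7 gated level was far lower at E23 than before. FREM1 was higher by 4.08 (adjusted p = 0.00403).

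Cell receptors for matrix were called in both directions. Of 18 integrins, 3 were higher in PAX7 gated cells, near the 19.8% over all genes, and 7 were lower, against 21.2% over all genes. The higher ones were the laminin-binding chains: ITGA6 with 113, 49.0, 54.2 and 187 CPM against 13.4, 4.28, 2.79 and 16.2 CPM (log2 fold 3.58, adjusted p = 0.00103), ITGA3 (log2 fold 3.51 ± 0.11, adjusted p = 0.000266) and ITGA7 (3.36, adjusted p = 0.00374). ITGA7 rose in PAX7 gated cells from 1.94 CPM at E13 to 34.9 CPM at E23, a series of single libraries. ITGA8, the partner of nephronectin in mesenchyme, had a log2 fold of -3.58 (adjusted p = 0.00226), and ITGB3 a value of -2.52 (adjusted p = 0.00152). The cadherin CDH11 stood at 391, 436, 378 and 408 CPM in FAP gated and 83.6, 103, 67.9 and 27.9 CPM in PAX7 gated cells (log2 fold -2.65, adjusted p = 0.00420).

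Among matricellular and elastic fibre genes 15 of 30 were lower and 3 higher in PAX7 gated cells. CCN4 had a log2 fold of -4.39 (adjusted p = 0.00178) and LOXL2, a collagen cross-linking enzyme, of -3.12 (adjusted p = 0.00304). TNC, which encodes tenascin C, stood at 974, 1383, 461 and 1788 CPM against 134, 68.6, 34.7 and 622 CPM (log2 fold -3.13, adjusted p = 0.00840), and its groups overlapped, because PAX7 gated cells at E23 had more than FAP gated cells at E18. CCN2, a target of YAP and TGF-beta signalling, overlapped too, with 1983, 2437, 646 and 1594 CPM against 703, 491, 74.4 and 556 CPM (log2 fold -2.10, adjusted p = 0.00645). EFEMP1, a fibulin, was higher in PAX7 gated cells at 60.2, 104, 300.4 and 104 CPM against 20.1, 6.37, 7.08 and 8.35 CPM (log2 fold 3.66, adjusted p = 0.0122). Of 35 proteases and inhibitors, 10 were lower and 3 higher, against 21.2% and 19.8% over all genes. TIMP3, an inhibitor bound to matrix, stood at 4846, 4849, 2109.7 and 1431 CPM against 447, 643, 111 and 251 CPM (log2 fold -3.27, adjusted p = 0.00224). PTX3, a pentraxin that binds hyaluronan complexes, stood at 1261, 1580.3, 1719.9 and 1920.0 CPM against 107, 119, 112 and 257 CPM (log2 fold -3.54, adjusted p = 0.000830), with no overlap. Of 10 hyaluronan genes 2 were higher and 4 lower, against 19.8% and 21.2% over all genes, and CEMIP was by far the lowest (adjusted p = 0.00106).

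Several ligands and their known receptors stood in opposite gates. HGF, the ligand of MET and a mitogen of satellite cells, stood at 113, 213, 133 and 219 CPM in FAP gated and 1.85, 1.31, 4.69 and 1.61 CPM in PAX7 gated cells (log2 fold -6.25 ± 1.13, adjusted p = 0.00175). MET stood at 101, 34.2, 41.1 and 158 CPM in PAX7 gated and 3.79, 0.940, 1.39 and 35.2 CPM in FAP gated cells (log2 fold 4.06 ± 1.36, adjusted p = 0.00632), and its groups overlapped, because FAP gated cells at E23 held more than PAX7 gated cells at E15. PDGFC and PDGFD, ligands of the PDGF receptors, were on the PAX7 side with 151, 247, 173 and 124 and 247, 367, 186 and 142 CPM. In FAP gated cells they stood at 9.19, 5.01, 3.33 and 6.18 and 45.6, 37.5, 30.0 and 25 CPM, giving log2 folds of 4.87 and 2.71 (adjusted p = 0.00148 and 0.00103). PDGFRA, a receptor of PDGFC, is given above, and PDGFRB, the main receptor of PDGFD, had a log2 fold of -2.18 (adjusted p = 0.0179) that was not called without E13 (0.0529) or without E15 (0.0540). Over the whole list of 20 migration and growth signals, 5 were higher and 8 lower, where 19.8% and 21.2% of all genes were.

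Of 24 members of the fibroblast growth factor pathway 7 were higher and 5 lower in PAX7 gated cells, near the 19.8% and 21.2% over all genes. FGF7 stood at 184, 194, 311 and 199.9 CPM in FAP gated and 24.3, 26.8, 39.0 and 27.8 CPM in PAX7 gated cells (log2 fold -2.91 ± 0.07, adjusted p = 0.000108), with almost the same ratio in each library. FGF10, the limb bud mesenchyme ligand, stood at 83.4, 119, 217 and 497 CPM against 3.83, 8.31, 29.4 and 74.2 CPM (log2 fold -3.43, adjusted p = 0.00231), and in both gates its level was higher at each later day. FGFR4 stood on the PAX7 side as above, while FGFR3 was lower in PAX7 gated cells (log2 fold -1.72, adjusted p = 0.0353). The FGFR3 call was lost without E13, E15 or E18 (adjusted p = 0.0845, 0.101 and 0.113). It was also lost with the same MYOD1 limit in both gates (0.0696) and with dividing cells left out (0.0579). FGFR1 was not called (log2 fold 0.00, adjusted p = 0.987), and FGFR2, the receptor that binds FGF7 and FGF10, was not called either (-1.18, adjusted p = 0.103). FGF13 and FGF14, intracellular members of the family, were higher by 3.63 and 3.24 (adjusted p = 0.0120 and 0.00231).

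**Figure D3:**
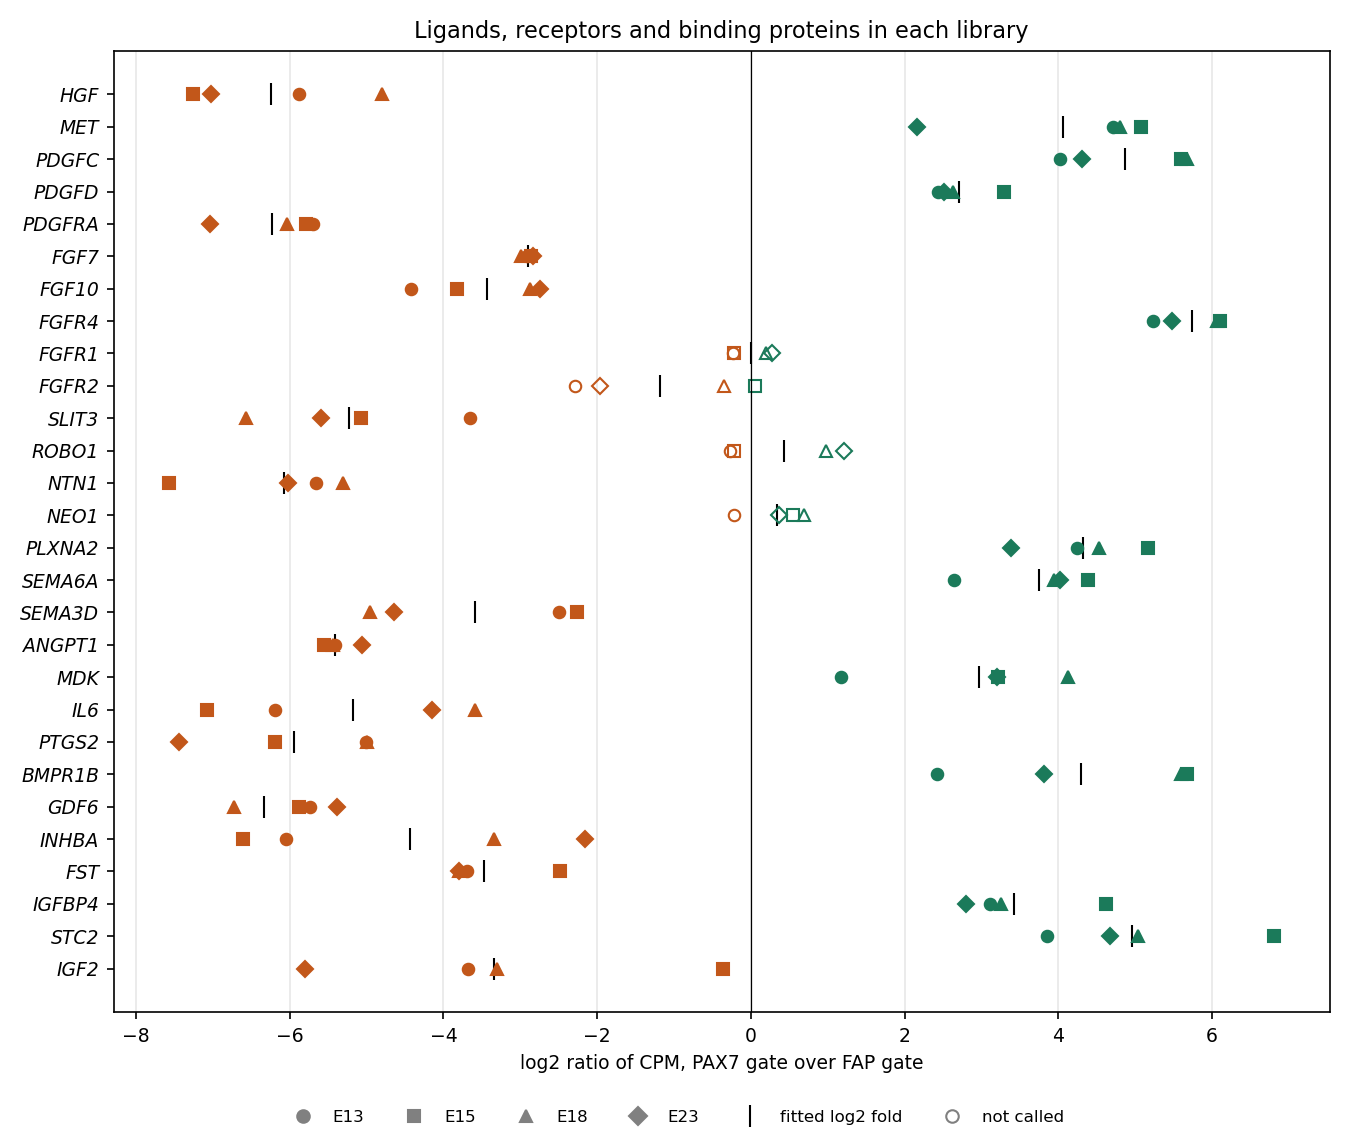
Log2 ratio of CPM, PAX7 gated over FAP gated cells, for ligands, receptors and binding proteins in each library (1 symbol per library), with the fitted log2 fold as a bar and open symbols for genes that were not called. HGF and PDGFRA lie below -4 in all 4 libraries, while FGFR4 and PDGFC lie above 4 in all 4 libraries.

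Axon guidance genes also steer migrating muscle cells. Of 40 tested, 12 were higher and 14 lower, where 19.8% and 21.2% of all genes were. SLIT3 stood at 1275, 1207, 1064 and 1691 CPM in FAP gated and 101, 35.6, 11.1 and 35.1 CPM in PAX7 gated cells (log2 fold -5.23 ± 1.21, adjusted p = 0.00275). NTN1, which encodes netrin 1, stood at 62.3, 103, 181 and 107 CPM against 1.15, 0.464, 4.47 and 1.57 CPM (log2 fold -6.07, adjusted p = 0.00114). The SLIT receptor gene ROBO1 and the netrin receptor genes NEO1 and DCC were not called (log2 folds 0.43, 0.34 and 0.39). The semaphorin receptor PLXNA2 and the semaphorin SEMA6A, which bind each other, were both on the PAX7 side, at 46.7, 59.1, 18.7 and 34.9 CPM against 2.40, 1.57, 0.735 and 3.27 CPM and at 186, 241, 173 and 143 CPM against 29.7, 11.5, 11.2 and 8.74 CPM. Their log2 folds were 4.31 and 3.74 (adjusted p = 0.00140 and 0.00188). SEMA3D was lower (log2 fold -3.59, adjusted p = 0.00879).

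Of 25 complement and cytokine genes, 4 were higher and 9 lower in PAX7 gated cells, where 19.8% and 21.2% of all genes were. IL6 stood at 356, 579, 250.0 and 371 CPM in FAP gated and 4.82, 4.22, 20.8 and 20.8 CPM in PAX7 gated cells (log2 fold -5.18 ± 1.65, adjusted p = 0.00592). ANGPT1, the ligand of the endothelial receptor TEK, stood at 53.9, 104, 59.7 and 89.8 CPM against 1.20, 2.15, 1.31 and 2.62 CPM (log2 fold -5.41 ± 0.21, adjusted p = 0.000108). KITLG, which encodes stem cell factor, was lower (log2 fold -2.40, adjusted p = 0.00147). On the other side, MDK, which encodes midkine, stood at 229, 612, 1095 and 291 CPM in PAX7 gated and 101, 66.1, 62.7 and 31.4 CPM in FAP gated cells (log2 fold 2.96, adjusted p = 0.0103), highest at E18. IL17A was low in both gates, with 3.42, 6.41, 3.20 and 2.35 CPM against 0.225, 0.418, 0.0387 and 0.0883 CPM (log2 fold 4.47, adjusted p = 0.00192), below its mean of 11 CPM in the PTPRC cells.

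Of 48 members of TGF-beta and BMP signalling 12 were higher and 13 lower, near the 19.8% and 21.2% over all genes. GDF6, a BMP ligand of joints, stood at 15.1, 16.8, 11.9 and 12 CPM in FAP gated and 0.206, 0.211, 0.0364 and 0.211 CPM in PAX7 gated cells (log2 fold -6.34, adjusted p = 0.000780). FST, which encodes the activin and myostatin antagonist follistatin, stood at 102, 41.3, 58.2 and 104 CPM against 7.83, 7.34, 4.11 and 7.42 CPM (log2 fold -3.47, adjusted p = 0.00154). INHBA, an activin subunit, had a log2 fold of -4.44 (adjusted p = 0.0177), which was not called without E13 (adjusted p = 0.0541). The receptor ACVRL1 was lower (log2 fold -4.77 ± 0.33, adjusted p = 0.000256). The BMP receptor BMPR1B was on the PAX7 side with 47.2, 115, 142 and 60.2 CPM against 8.74, 2.19, 2.86 and 4.20 CPM (log2 fold 4.30, adjusted p = 0.00716), highest at E15 and E18. MSTN, the myostatin gene, was not called (log2 fold 3.41, adjusted p = 0.122), with 9.68, 9.66, 1.64 and 0 CPM against 0.750, 0, 0.0774 and 0.265 CPM.

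In the Wnt pathway 7 of 33 members were higher and 9 lower, also near the shares over all genes. LEF1, a transcription factor at the end of the pathway, stood at 27.8, 63.2, 61.0 and 32.9 CPM in PAX7 gated and 2.92, 1.98, 1.70 and 2.52 CPM in FAP gated cells (log2 fold 4.22, adjusted p = 0.00218). The R-spondins, which amplify Wnt signals, stood on both sides, with RSPO1 higher (log2 fold 4.01, adjusted p = 0.00147) and RSPO4 lower (log2 fold -2.78, adjusted p = 0.00528). Their receptor LGR5 was lower (log2 fold -3.24, adjusted p = 0.00234), and so was WNT5A (log2 fold -2.91, adjusted p = 0.00188). AXIN2, a general target of the pathway, was not called (log2 fold -0.03, adjusted p = 0.898).

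Insulin-like growth factor genes had 3 of 19 members higher and 5 lower, near the shares over all genes. STC2, an inhibitor of the protease that frees IGFs, stood at 324, 278, 147 and 165 CPM in PAX7 gated and 22.4, 2.40, 4.37 and 6.40 CPM in FAP gated cells (log2 fold 4.95, adjusted p = 0.00254). IGFBP4, a substrate of that protease, stood at 281, 341, 256 and 209.6 CPM against 32.5, 13.8, 26.7 and 30.0 CPM (log2 fold 3.42, adjusted p = 0.00227). The protease gene PAPPA was not called (log2 fold -0.10, adjusted p = 0.854). IGF2 stood at 74.4, 16.3, 42.8 and 57.3 CPM in FAP gated and 5.73, 12.6, 4.29 and 0.952 CPM in PAX7 gated cells (log2 fold -3.34, adjusted p = 0.0421), a call that was lost without E13, E18 or E23 (adjusted p = 0.135, 0.129 and 0.0773). In the retinoid list 4 of 14 were higher and 3 lower, against 19.8% and 21.2% over all genes. STRA6, the membrane receptor for retinol-binding protein, had a log2 fold of 4.09 (adjusted p = 0.00141). CRABP1 had one of -3.44 (adjusted p = 0.00238).

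Of 13 adipogenic genes 2 were higher and 5 lower, where 19.8% and 21.2% of all genes were. PPARG, the master factor of fat cells, was lower in PAX7 gated cells, at 20.7, 4.85, 4.69 and 14.3 CPM against 97.5, 30.3, 22.7 and 38.6 CPM (log2 fold -2.13, adjusted p = 0.00238), and its mean in the PTPRC cells was 333 CPM. FABP3, a fatty acid binding protein of muscle, was higher at 66.3, 80.4, 69.7 and 67.0 CPM against 8.21, 11.1, 9.98 and 10.3 CPM (log2 fold 2.84 ± 0.13, adjusted p = 0.000240), with 1099 CPM in the PTPRC cells. The lists of glycolysis and of oxidative phosphorylation differed in how many members were called. Of 20 glycolysis genes 10 were lower, against 21.2% over all genes, and 4 higher, near the 19.8% over all genes. The phosphofructokinase of liver, PFKL, had a log2 fold of -1.09 (adjusted p = 0.00318), while that of muscle, PFKM, was higher by 2.04 (adjusted p = 0.00914). PFKM rested on 148 UMIs in PAX7 gated and 20 in FAP gated cells, and it was not called with dividing cells left out (log2 fold 1.48, adjusted p = 0.0973). Of 51 nuclear genes of oxidative phosphorylation 40 were not called, 7 were lower and 4 higher, where 19.8% and 21.2% of all genes were called higher and lower. The lowest log2 fold was that of NDUFB9 (-0.63) and the highest that of NDUFA4 (0.39), both subunits of the respiratory chain, and neither was called without the library as a block (adjusted p = 0.0842 and 0.236). Of 26 stress and immediate early genes 6 were higher and 5 lower, near the 19.8% and 21.2% over all genes. FOS, ATF3 and HMOX1 were not called (log2 folds -0.09, 0.02 and -0.03).

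Cells were counted as cycling where at least 2 of 6 mitotic genes were detected after thinning to 4000 UMIs. The share was 16.6%, 25.3%, 32.7% and 27.4% of PAX7 gated cells and 28.6%, 28.6%, 60.2% and 30.9% of FAP gated cells, so FAP gated cells at E18 stood apart. It was lower in PAX7 gated cells in 4 of 4 libraries, by 11.6 percentage points on average (SD 11.4, n = 4), with a two-sided exact sign-flip p of 0.13, the smallest that 4 pairs allow. Without thinning the mean difference was -21.2 points. The FAP gate asked for at least 5 UMIs each of DCN and COL6A3, and the median FAP gated cell held more UMIs. Thinning came after gating and does not undo this choice of cells, whose part in the difference was not tested. In the summed counts only 3 of 33 cell cycle genes were called, all lower, and SMC4, a condensin subunit, stayed called without each library in turn (log2 fold -1.54, adjusted p = 0.00715). CDK1 and KIF20A (log2 folds -0.65 and -0.64, adjusted p = 0.0358 and 0.0463) were not called without E13 (adjusted p = 0.106 and 0.0654), E18 or E23, and KIF20A also not without E15. MKI67, TOP2A and PCNA were not called (log2 folds -0.30, 0.12 and -0.18).

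**Figure D4:**
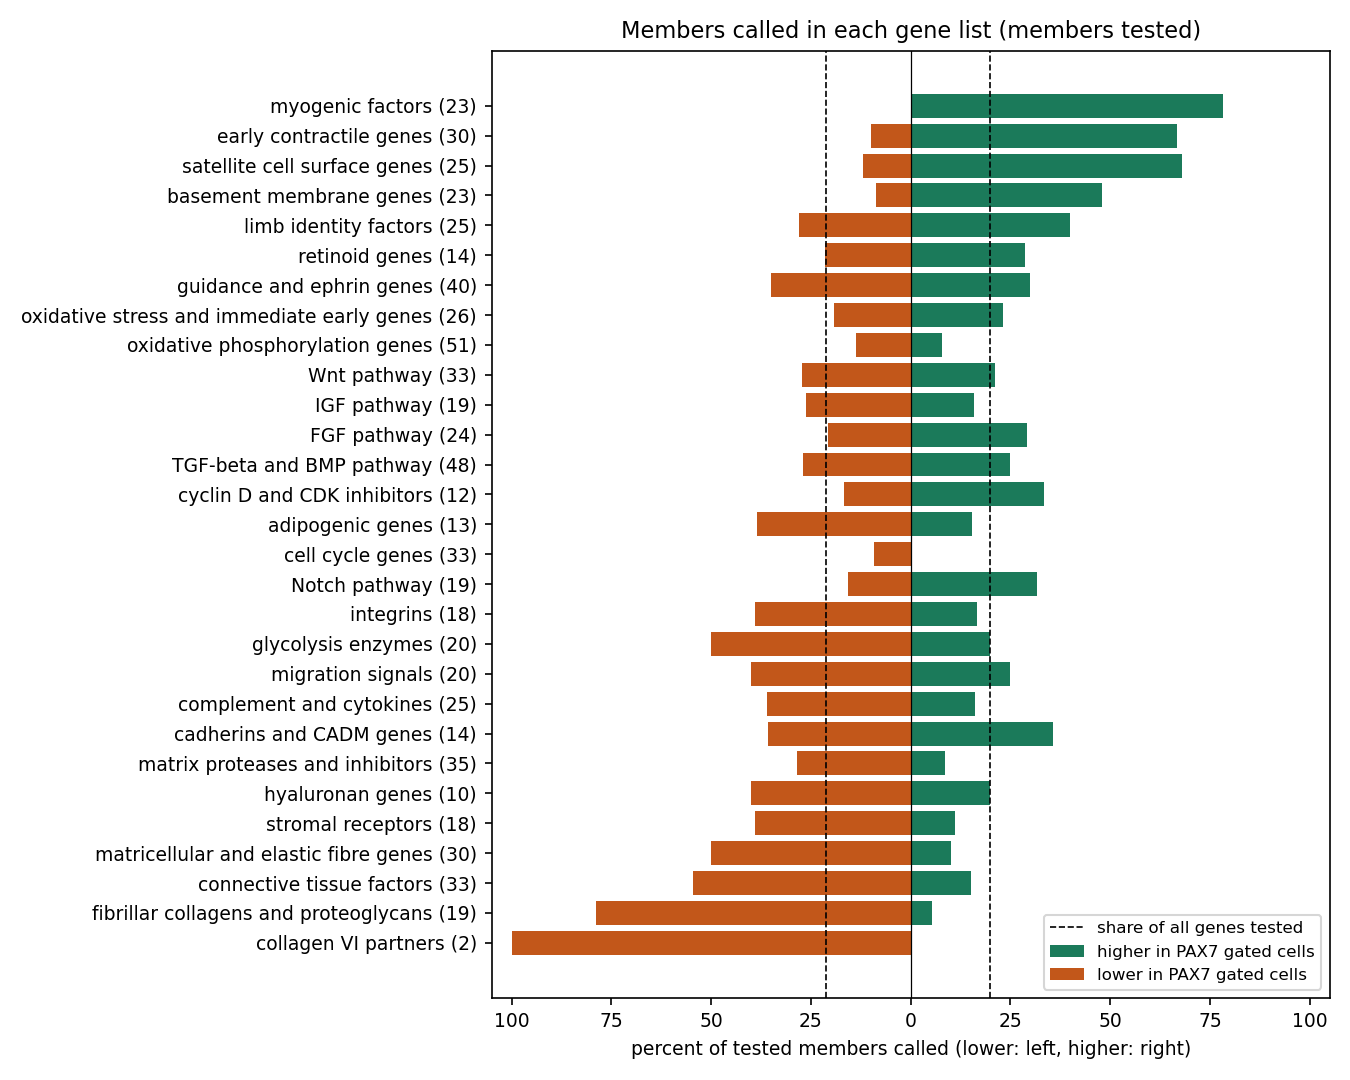
Percent of tested members called higher (green, to the right) and lower (orange, to the left) in PAX7 gated cells for 29 gene lists, with the number of members tested in brackets and the lists in order of their median log2 fold. Dashed lines mark 19.8% and 21.2%, the shares over all genes tested, and the longest bars are those of the myogenic factors to the right and of the 2 collagen VI partners and the fibrillar collagens to the left.

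A trend of the difference over the days was tested as a linear term, which 4 libraries leave with few degrees of freedom. No gene passed (0% of 13858, smallest adjusted p 0.638), and 820 had an unadjusted p below 0.05. Where no gene has a trend, that unadjusted threshold would pass nearly as many. The genes nearest to a trend included MRAS, a RAS-related GTPase, whose log2 ratio was 1.46, 2.37, 3.26 and 4.09 in the order of the days, and NRG3, a neuregulin, with -2.22, -2.86, -4.39 and -5.90. As a difference between the gates, MRAS was called (log2 fold 2.79, adjusted p = 0.00902), and NRG3 (log2 fold -3.80, adjusted p = 0.0123) was not called without E18 (adjusted p = 0.0525). FHL1, a LIM protein of muscle, had ratios of -1.33, -0.62, 1.37 and 2.73, and HSPB1, a small heat shock protein, of -1.72, -1.49, -0.11 and 1.49. The HSPB1 levels were 142, 119, 149 and 101 CPM in PAX7 gated and 468, 335, 161 and 35.6 CPM in FAP gated cells, so the PAX7 gated level varied less than the FAP gated one. GRIK2, a glutamate receptor gene, had ratios of -3.06, -3.49, -4.03 and -6.13, on the FAP side in every library.

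**Figure D5:**
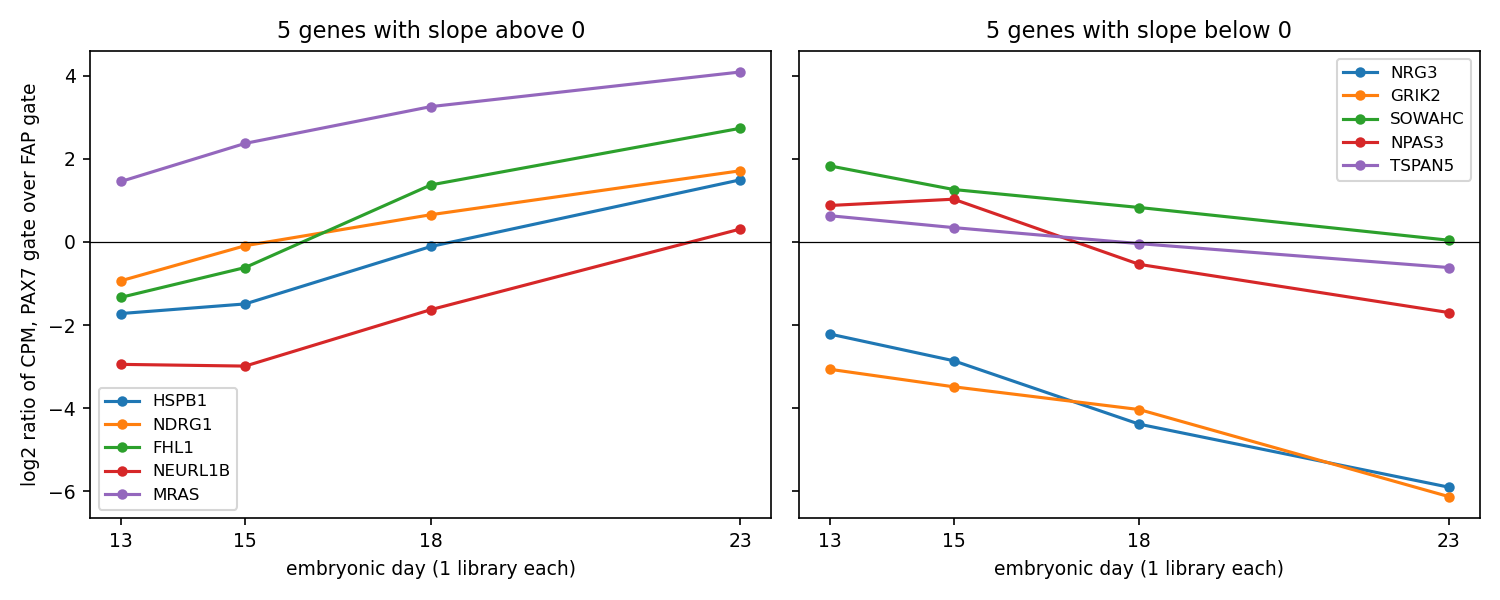
Log2 ratio of CPM, PAX7 gated over FAP gated cells (vertical axis), by embryonic day (horizontal axis, 1 library each) for the 5 genes of each sign with the smallest p of the trend. Ratios of MRAS climb from 1.46 to 4.09 and those of NRG3 fall from -2.22 to -5.90, and none of the 10 trends passed adjustment.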

How the data were processed

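The authors deposited 1 filtered 10x matrix of UMI counts per library, with raw whole-number counts per gene and barcode. They name Cell Ranger 7.1.0, while the file headers carry version 9.0.0. All 25487 gene entries matched a RefSeq table of a Taihu goose assembly, which is not the assembly named in the paper, so that no coordinates are given. Cells were chosen from raw counts as described, and cell labels of the authors were not used here. The genes that chose the cells, all lists and all tests were taken up with earlier results of these data known.

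Counts were summed per library and gate and fitted with edgeR 4.0.16 (R 4.3.3, TMM scaling, filterByExpr, quasi-likelihood test with gate and library, glmTreat for the 2-fold test), leaving out the 6 gate genes and 11623 genes with low counts. Adjusted p values are Benjamini-Hochberg values over all 13858 genes, with a threshold of 0.05. CPM are on TMM-scaled totals, except those of the gate genes and of the PTPRC cells, which are on plain totals. The block rests on both gates coming from the same library, and the 2 sums of a library deviated from their gate means together (correlations 0.492, 0.327, 0.537 and 0.598 over genes, against -0.360 to 0.159 between libraries). A trend used gate by day as a number with the library block. No library has a replicate, so p values measure only how the difference between the gates varied over the 4 libraries.

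Named genes were, per direction, the 12 with the largest log2 fold past the 2-fold test at 20 CPM or more with the same sign in 4 libraries and a symbol not starting with LOC, the 5 such genes of highest mean CPM, up to 6 called members per list with the uncalled ones, and 5 trend genes per sign. Results of some genes are not reported here. Scripts were tested on simulated data. Alternatives were DESeq2 1.42.0, its size factors, no filter on low counts, no library block, each library left out, stricter and looser gates, an equal MYOD1 limit, thinning to 4000 UMIs (numpy 2.4.6), removal of the highest scrublet scores (scanpy 1.11.5, 0.8% per 1000 barcodes) and removal of cycling cells.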

Additional observations from a re-analysis of the deposited data

Results flagged for a closer look

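Genes nearest to a trend over the days were looked at again where PAX7 gated cells stood below FAP gated cells at one end of the series and above them at the other. HSPB1, a small heat shock protein gene, had a log2 ratio of -1.72 at E13 and 1.49 at E23. NDRG1, a stress-induced gene of differentiating cells, went from -0.93 to 1.71, and the muscle LIM gene FHL1 from -1.33 to 2.73. NEURL1B, an E3 ligase gene of the Notch pathway, went from -2.95 to 0.31. In the other direction, NPAS3, a neuronal transcription factor gene, went from 0.88 to -1.7 and the tetraspanin gene TSPAN5 from 0.63 to -0.62. With 1 library per day the difference between E13 and E23 was not tested, and none of these trends over the 4 libraries passed adjustment in edgeR (adjusted p from 0.638 to 0.650).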

How the results depend on the processing

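Without the replicate block of the library, 1311 genes were higher and 1130 lower in PAX7 gated cells, against 2740 and 2934 with it. Leaving out 1 library in turn gave 1692 to 2292 higher and 1779 to 2255 lower genes, and 352 to 528 higher and 364 to 459 lower genes in the 2-fold test. Stricter gates left 6458 PAX7 gated and 3268 FAP gated cells. Of the 1194 genes past the 2-fold test, 774 of the 1091 still tested stayed past it when PAX7 gated cells had the same MYOD1 limit as FAP gated cells (3818 cells left), 1137 with doublets removed, 1064 with stricter gates and 1085 with DESeq2, all with the same sign. Over 209 named genes that were called and 14 alternatives, none of 2899 values changed sign and 160 were no longer past the threshold. A gene with too few counts to be tested in an alternative gave no value there. In every alternative that tested them 149 genes were called, while 60 lost the call at least once and 32 lost it without 1 library. Without the block 42 of the 209 lost it, among them MET, TNC, CCN2, FGF10 and RSPO4 (adjusted p of edgeR 0.0937, 0.0825, 0.0696, 0.0542 and 0.219). The trend over days gave 0 genes in every alternative run. Counts of FAP gated cells at E15, the smallest sum, and 1 library per day limit the precision.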

Other observations

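Genes known from tendon were on the PAX7 side where they were called. SCX, the transcription factor of tendon progenitors, stood at 4.04, 6.58, 5.09 and 4.70 CPM in PAX7 gated and 0.412, 0.104, 0.155 and 0.265 CPM in FAP gated cells at E13, E15, E18 and E23 (log2 fold 4.30, adjusted p = 0.00220 by edgeR), without overlap. THBS4, a thrombospondin of tendon and muscle, stood at 5.44, 7.04, 4.07 and 5.16 CPM against 2.25, 0.731, 0.271 and 0.353 CPM (log2 fold 2.93, adjusted p = 0.0115). TNMD and MKX, further tendon genes, did not pass (log2 folds 2.09 and 2.06, adjusted p = 0.119 and 0.0712) and overlapped. SOX9, a factor of cartilage and tendon progenitors, was higher as well, with 16.1, 11.8, 11.5 and 11.3 CPM against 9.79, 2.61, 2.94 and 3.49 CPM (log2 fold 1.61, adjusted p = 0.00879), while the cartilage collagen gene COL11A2 was lower (log2 fold -2.42, adjusted p = 0.00269). These genes thus did not all lie on the side of the connective tissue factors.

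Among 12 genes of cyclin D and of the cell cycle inhibitors, 4 were higher and 2 lower in PAX7 gated cells. Over all genes 19.8% were higher and 21.2% lower. CCND3 stood at 26.2, 25.7, 24.2 and 33.2 CPM in PAX7 gated and 39.3, 84.1, 90.1 and 86.3 CPM in FAP gated cells (log2 fold -1.40, adjusted p = 0.00882), without overlap. CDK6, a partner of the D cyclins, was higher with a log2 fold of 0.66 (adjusted p = 0.00408). CDK6 was not called without the library as a block (adjusted p = 0.181). CCND1 did not pass (log2 fold -0.13, adjusted p = 0.510).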
